A study of Mus musculus with 24 samples.

Results

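Fas, Mcl1, Pdcd4 and Mdm2 are 4 genes that act on the decision between cell death and survival or on the p53 pathway. Their members here are all probes to which the platform annotation assigns exactly 1 symbol, equal to one of these names, which covered 4 of 6970 genes and 9 of the 15360 probes measured: 3 for Fas, 2 for Mcl1, 2 for Pdcd4 and 2 for Mdm2. Of these, 5 probes were on slide type 1, which carried Fas, Mcl1 and Mdm2, and 4 on slide type 2, which carried Fas, Mcl1 and Pdcd4. A further probe of slide type 1 carries Pdcd4 together with a second symbol, 2310002J21Rik, and was left out. Mouse embryos in culture were exposed to 43 °C over 15 min and then kept at 37 °C during 1 h of recovery, and control embryos stayed at 37 °C without the heat. Total RNA of both was hybridised to arrays with 2 channels, 24 in all, from 3 numbered treatments. Each treatment had 4 arrays per slide type, of which 2 had the heat-shocked RNA in channel 1 and 2 had it in channel 2. The labels give no strain, age or number of embryos and do not say whether each treatment had its own litters. The p-values therefore rest only on spread between these 3 treatments. In them, limma draws the spread of each probe or gene towards that of all probes or genes of its slide type.

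Apoptosis is started either from the cell surface, where death receptors such as Fas recruit adaptors and caspases, or from mitochondria, where members of the Bcl2 family such as Mcl1 set whether the outer membrane is opened. The transcription factor p53 acts on both routes and turns on Fas and Mdm2, among other genes, and the Mdm2 protein in turn ubiquitinates p53 and lowers its amount. Pdcd4 binds the helicase eIF4A and inhibits translation initiation. In heat-exposed embryos, cell death is a known outcome that differs between tissues, and whole embryos join all of these tissues in one RNA sample. In such bulk RNA, fewer cells of a type and less RNA per cell cannot be told apart.

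All values are log ratios with every array set to a median of 0. Neither the log base nor the numerator of the deposited ratio is stated; a step of 1 would be 2-fold in log2 and 2.72-fold in natural log. The sign was turned so that all arrays run the same way, and the positive side stands for more RNA in heat-shocked embryos if channel 1 was the authors' numerator. Otherwise every sign below is mirrored, with sizes, counts and p-values as given: a value of −0.84 then stands for 0.84, and a rank from the most negative end is one from the most positive end. What is stated about the ratio therefore does not settle the direction. Between arrays of different treatments and the same channel order on slide type 2, r across probes had a median of 0.49 over 24 pairs and a lowest value of −0.34, and between treatment means it was 0.82 to 0.90. The side can be read against genes of the heat shock response measured in the same way. Hspb1, the small heat shock protein Hsp27, had 2.23 ± 0.05 on slide type 2 (SD, n = 3 treatments), with 2.39 and 2.07 in the 2 channel orders, and Hsph1, an Hsp110 chaperone, had 2.28 ± 0.50 on slide type 1, so "negative" below means the side opposite to these genes. Spot intensities were not used here, and neither dim spots nor the depth of a signal could be judged.

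Fas, the death receptor that binds Fas ligand and recruits Fadd and caspase 8, lay far on the negative side with each of its 3 probes and in each of the 3 treatments. Probe 598 of slide type 1 had −0.92, −0.94 and −0.65 in treatments 1, 2 and 3, and probe 3402 had −0.73, −0.75 and −0.70. Probe 1408, of slide type 2, had −0.996, −1.11 and −0.91. Every one of the 36 centred values of Fas on single arrays was below 0 (12 arrays with 2 probes each on slide type 1, and 12 with 1 probe on slide type 2). No treatment stood apart with probes 3402 and 1408, whereas treatment 3 was nearer to 0 than the others with probe 598.

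The mean was −0.84 ± 0.16 for probe 598 (SD, n = 3, limma adjusted p = 1.3e-06) and −0.73 ± 0.02 for probe 3402 (limma adjusted p = 1.3e-06). For probe 1408 it was −1.01 ± 0.10 (limma adjusted p = 4.22e-07). In order from the most negative of 7680 probes, probes 598 and 3402 took places 7 and 18 on slide type 1, and probe 1408 took place 13 on slide type 2. On slide type 1, 2 of the 5 probes described here, both of Fas, were called on the negative side and 0 on the positive side, where 5.09% and 11% of all probes were called. Of the 4 probes of slide type 2, 1 was called negative (Fas) and 2 positive (Pdcd4), where 24.4% and 28.9% of all probes were called. A call alone therefore separates a probe little from the rest of slide type 2, and the place among all probes is given beside it. Without centring, which moved the median of all genes on slide type 1 from −0.04 to 0.27, probe 3402 no longer passed (−0.42, limma adjusted p = 0.0568), while probe 598 (−0.54, limma adjusted p = 0.00983) and probe 1408 (−0.92, limma adjusted p = 1.69e-08) did.

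**Figure D1:**
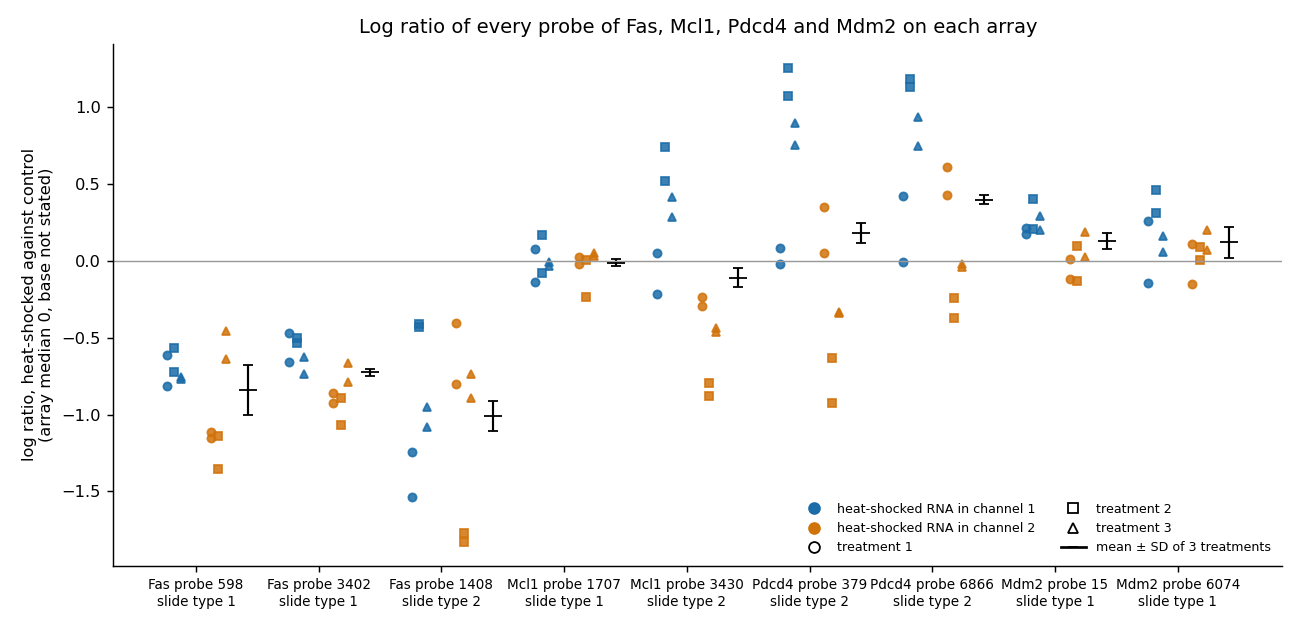
Each point is the centred log ratio (vertical axis, base not stated) of 1 probe on 1 array, coloured by the channel of the heat-shocked RNA and shaped by treatment; the black bars are the mean ± SD of the 3 treatments. The 36 Fas values all lie below 0, whereas the Pdcd4 and Mcl1 values on slide type 2 lie on both sides, split mainly by channel order.

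The place of Fas within single arrays does not depend on where 0 is put. Of its 36 array values, 31 had fewer than 5% of the probes of their array below them, and 23 had fewer than 1%. For probe 598 this share ranged from 0.0781% to 11.2%, with a median of 0.352% over 12 arrays. For probe 3402 it ranged from 0.182% to 7.02%, with a median of 0.488%. Probe 1408 had a median of 0.371% and a range from 0.0521% to 29.6%. Its highest shares, 29.0% and 29.6%, were both from the arrays of treatment 2 with heat-shocked RNA in channel 1, where its log ratios were −0.41 and −0.43. No value of Mcl1, Pdcd4 or Mdm2, with 24 each, had fewer than 5% of its array's probes below it.

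**Figure D2:**
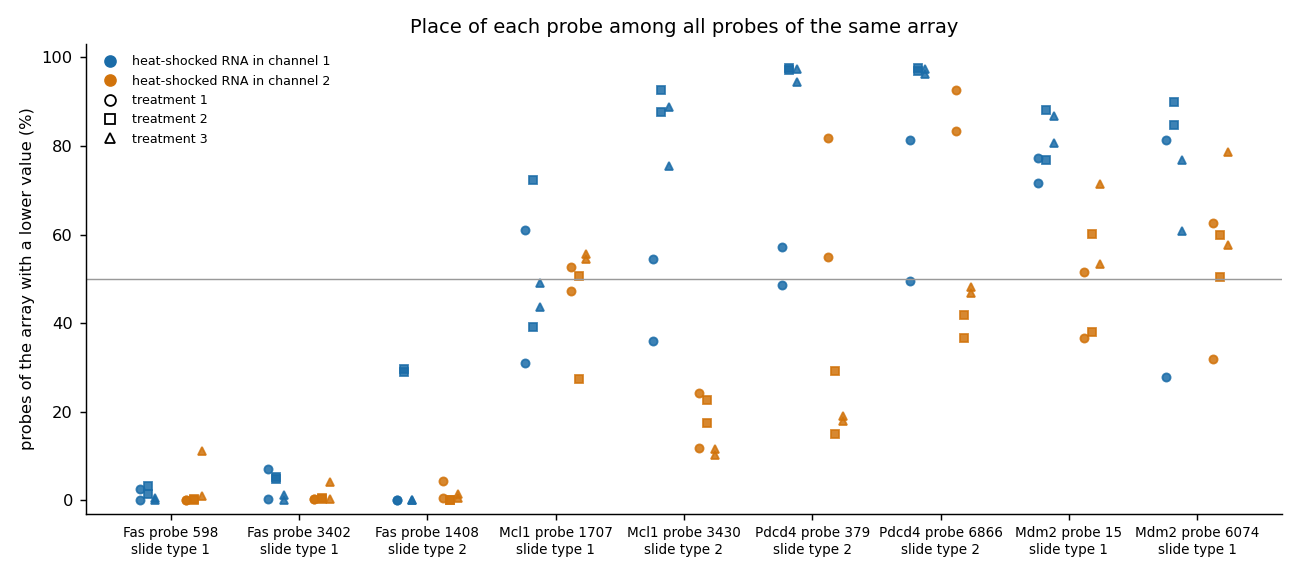
The vertical axis gives the percentage of all 7680 probes of the same array with a lower value, for each probe on each array (colour, channel of the heat-shocked RNA; shape, treatment). Fas values crowd at the bottom, with medians under 0.5%; 5 of the 36 lie above 5%, namely 29.6% and 29.0% for probe 1408, 11.2% for probe 598 and 7.02% and 5.38% for probe 3402. Mcl1 on slide type 1 is spread around the middle.

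Fas and Mcl1 are the genes with probes on both slide types, and one was called throughout and the other nowhere. For each, the stretch of 250 bases before the 1 start that the RefSeq promoter table gives, on build GRCm38.p6, is therefore shown. That of Fas is at chr19:34290409-34290658 and that of Mcl1 at chr3:95658471-95658720, both on the plus strand. The annotated gene spans begin further upstream than these starts, at 34290647 for Fas and 95656944 for Mcl1, so the Mcl1 stretch lies inside its gene span. In both, capitals mark matches to the searched motifs.
Fas: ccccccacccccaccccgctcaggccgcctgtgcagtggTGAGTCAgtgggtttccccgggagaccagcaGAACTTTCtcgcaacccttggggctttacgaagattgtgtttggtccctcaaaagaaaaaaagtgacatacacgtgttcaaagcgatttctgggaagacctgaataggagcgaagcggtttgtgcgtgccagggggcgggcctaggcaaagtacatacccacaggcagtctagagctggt
Mcl1: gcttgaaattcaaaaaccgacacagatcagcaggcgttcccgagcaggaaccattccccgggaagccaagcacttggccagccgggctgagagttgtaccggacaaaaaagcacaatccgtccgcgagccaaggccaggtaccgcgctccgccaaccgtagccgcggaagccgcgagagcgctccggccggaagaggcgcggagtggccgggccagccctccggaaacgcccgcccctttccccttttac
The motifs, searched on both strands, were GAANNTTC and TTCNNGAA (a pair of heat shock element units in either arrangement), TGANTCA (the AP-1 site) and TATAAA (the TATA box). The Fas stretch held 1 match to GAANNTTC, whose first base lies at −180 from the start, and 1 to TGANTCA, at −211, and these matches do not overlap. Among all 32851 promoter windows of the table, 6.69% held GAANNTTC and 6.75% held TGANTCA in the same 250 bases. No match to any of the 4 motifs was found in the windows of Mcl1, Mdm2 or Pdcd4, the latter with 2 annotated starts, which says only that these letters are not there. The Fas gene spans chr19:34290647-34327775, and the GC content of its 250 bases was 56.4%, against 64.4% for Mcl1 and a median of 52.4% over all windows.

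Mcl1, an antiapoptotic member of the Bcl2 family whose protein and mRNA are short-lived, lay close to 0. Its probe 1707 of slide type 1 had −0.01, −0.04 and 0.01 in treatments 1, 2 and 3, with a mean of −0.01 ± 0.02 (SD, n = 3, limma adjusted p = 0.944). Its probe 3430 of slide type 2 had −0.17, −0.10 and −0.05, with a mean of −0.11 ± 0.06 (limma adjusted p = 0.127). The 95% intervals of the limma fit ran from −0.15 to 0.12 and from −0.24 to 0.02, so mean log ratios as large as those of Fas lie outside both. These intervals rest on averages over both channel orders and do not hold the gap between the orders, which was wide for probe 3430. The gene, at chr3:95656944-95663179, was thus not separated from the middle of either slide type, with probe 1707 in place 3903 of 7680 from the most negative and probe 3430 in place 2429.

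The near-zero mean of probe 3430 joined arrays that lay far apart. With heat-shocked RNA in channel 1 its 6 arrays ran from −0.21 to 0.74 with a median of 0.35, and with it in channel 2 from −0.88 to −0.24 with a median of −0.45. The nearest values of the 2 orders were −0.21 and −0.24, and how many of all probes were parted in this way was not counted. In treatment 2 its means were 0.63 and −0.84 in the 2 orders, in treatment 3 they were 0.35 and −0.45, and in treatment 1 they were −0.08 and −0.26. Probe 1707 on slide type 1 had no such split, with 6 arrays from −0.14 to 0.17 in one order and 6 from −0.24 to 0.05 in the other. The channel-order difference itself, the mean with heat-shocked RNA in channel 1 less that with it in channel 2, was 0.82 ± 0.64 for probe 3430 and did not pass the limma test over all probes (adjusted p = 0.506). Without centring this difference was −0.48 (limma adjusted p = 0.533), so the side of the split depended on the centring.

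Pdcd4, an inhibitor of eIF4A and a tumour suppressor in mouse and human cells, lay on the positive side in the mean of both its probes on slide type 2. Probe 379 had 0.11, 0.19 and 0.24 in treatments 1, 2 and 3, and probe 6866 had 0.36, 0.42 and 0.41. The means were 0.18 ± 0.07 (SD, n = 3, limma adjusted p = 0.0223) and 0.40 ± 0.03 (limma adjusted p = 0.000329). Probe 6866 was higher than probe 379 in each of the 3 treatments, by 0.21 ± 0.05 on average, and whether the probes read different transcripts of the gene, at chr19:53892231-53937592, was not tested. From the most positive of 7680 probes, probe 6866 took place 332 and probe 379 place 1874, the latter within the 28.9% of probes called on that side. On slide type 1, the probe left out for its second symbol, 2310002J21Rik, had 0.05 ± 0.10 (limma adjusted p = 0.731).

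**Figure D3:**
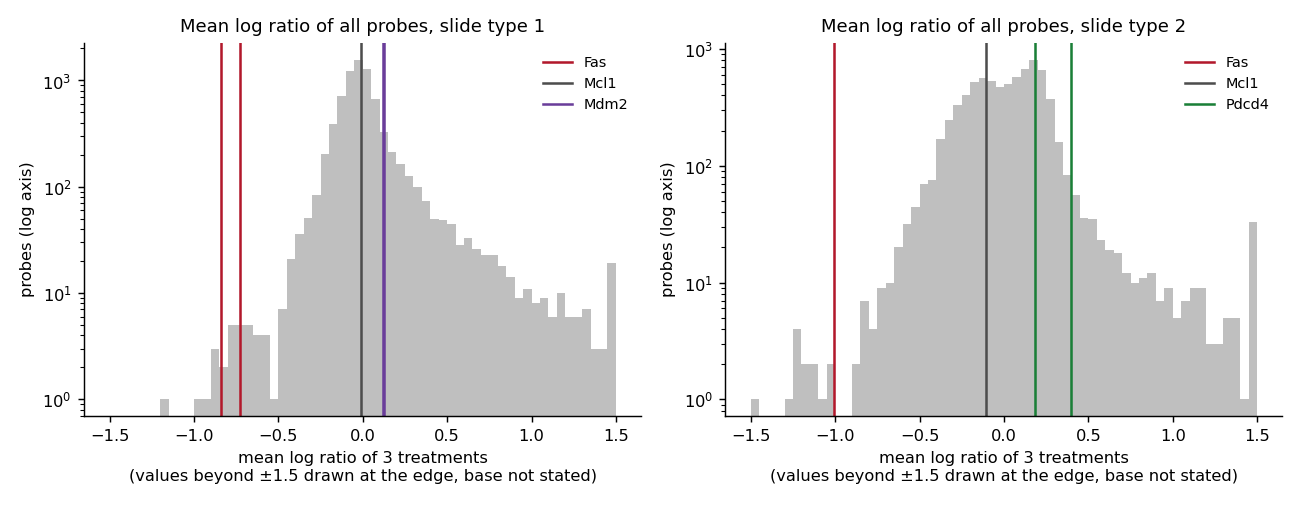
Histograms of the mean log ratio of 3 treatments (horizontal axis, base not stated) for all 7680 probes of each slide type, with the number of probes on a log axis and values past the axis ends drawn at the edge; coloured lines mark the probes of the 4 genes. The Fas lines, at −0.84, −0.73 and −1.01, stand in the sparse negative tail, and those of Mcl1, Mdm2 and Pdcd4 fall within or near the bulk.

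In the centred values, both probes of Pdcd4 were split by channel order, as Mcl1 was on the same slides. With heat-shocked RNA in channel 1, probe 6866 ran from −0.01 to 1.18 over 6 arrays with a median of 0.84, and with it in channel 2 from −0.37 to 0.61 with a median of −0.03. Probe 379 ran from −0.02 to 1.26 (median 0.83) in the first order and from −0.92 to 0.35 (median −0.34) in the second. The split came from treatments 2 and 3. In treatment 2 the channel-order difference of probe 379 was 1.94 and in treatment 3 it was 1.16, while in treatment 1 it was −0.17. Probe 6866 gave 1.46, 0.87 and −0.31 in the same order of treatments. Without centring, the mean differences were −0.32 and −0.62 for probes 379 and 6866, so the side of this split depended on the centring. With centring and heat-shocked RNA in channel 1 alone, neither probe passed (0.67 and 0.73, limma adjusted p = 0.103 and 0.0521 for probes 379 and 6866). With it in channel 2 alone, probe 379 turned to −0.31 (limma adjusted p = 0.323) and probe 6866 had 0.06 (limma adjusted p = 0.852). The small spread between the treatment means of Pdcd4 thus holds only for the average over both orders. The call of probe 379 was also lost without treatment 3 (0.15, limma adjusted p = 0.178), without centring (0.27, limma adjusted p = 0.224) and on arrays with a suffix in the slide code alone (0.15, limma adjusted p = 0.077).

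Mdm2, the E3 ubiquitin ligase of p53 and itself a p53 target gene, had small positive values that did not pass the test. Probe 15 had 0.07, 0.14 and 0.18 in treatments 1, 2 and 3, and probe 6074 had 0.02, 0.22 and 0.12. The means were 0.13 ± 0.05 (SD, n = 3, limma adjusted p = 0.223) and 0.12 ± 0.10 (limma adjusted p = 0.294). Both probes thus gave nearly the same mean, and their 95% intervals were −0.01 to 0.26 and −0.02 to 0.26. Over single arrays, 20 of 24 values of the 2 probes were above 0, and the 4 values below 0 were spread over both probes. With heat-shocked RNA in channel 1, probe 15 had 6 of 6 arrays above 0, from 0.17 to 0.40, and in that order alone it passed (0.25, limma adjusted p = 0.0203). With it in channel 2 its 6 arrays ran from −0.13 to 0.19. Probe 15 also passed without centring (0.43, limma adjusted p = 0.0497) and with the 12 arrays fitted singly and the treatment as a block (0.13, limma adjusted p = 0.0487), each time close to the threshold of 0.05. The gene is at chr10:117688875-117710758, and slide type 2 gave no value for it.

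By channel order, Fas differed in size but not in sign. On slide type 1, probe 598 had −0.71 ± 0.06 in the order with channel 1 heat-shocked and −0.97 ± 0.38 in the reverse order, and probe 3402 had −0.59 ± 0.08 and −0.87 ± 0.13. For probe 1408 on slide type 2 these values were −0.94 ± 0.49 and −1.07 ± 0.64, and the larger of the pair changed with the treatment. In treatment 1 the same orders gave −1.39 and −0.60, whereas in treatment 2 it had −0.42 and −1.80. Treatment 3 lay between, with −1.02 and −0.81. The average over both orders varied little between treatments, with an SD of 0.10. Across the 9 probes the channel-order difference was positive in 9, and over all probes it was positive in 4627 of 7680 for slide type 1 and 4223 of 7680 for the other. It passed the limma test (adjusted p under 0.05) for 0 of the 9, against 22.2% and 0.013% of all probes of slide types 1 and 2. Without adjustment, limma put probe 379 of Pdcd4 under 0.05 and none of the other 8, where 2967 and 798 of 7680 probes were under it on slide types 1 and 2. The channel-order difference on slide type 2 varied most in treatment 2, with an SD over all probes of 1.22 against 0.45 and 0.56 in treatments 1 and 3, and its part in the values of Mcl1 and Pdcd4 was not tested.

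**Figure D4:**
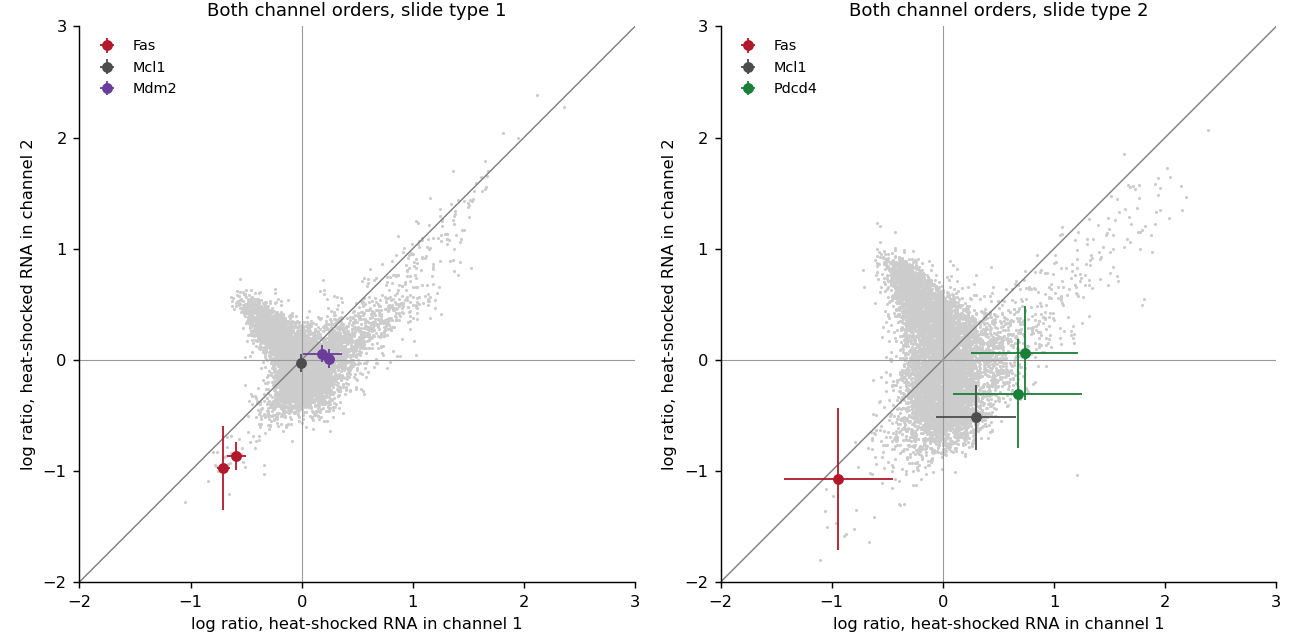
Each grey point is 1 probe, with its mean log ratio over 3 treatments on arrays with heat-shocked RNA in channel 1 (horizontal) and in channel 2 (vertical); coloured points are the 4 genes with the SD of the treatments in both directions, and the diagonal marks equal values. Fas lies near the diagonal at the negative end on both slide types, and in these centred values Pdcd4 and Mcl1 on slide type 2 lie to the right of it.

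The genes whose mean profile over the 12 arrays of a slide type lay nearest to that of Fas, by the root mean square difference, were strongly negative genes of varied function. A level or channel-order split shared with the member follows from this choice, which used the same arrays. For slide type 1 the genes nearest to Fas were Srsf3, a splicing factor, at a difference of 0.13 units, Slc2a1, a glucose transporter, at 0.15, and Hmgcs1, an enzyme of sterol synthesis, also at 0.15. The median difference from Fas over the other 3837 genes was 0.81. For slide type 2 they were Amd2, an S-adenosylmethionine decarboxylase of polyamine synthesis, at 0.20, the histone chaperone Nasp at 0.23 and the actin-binding thymosin Tmsb4x at 0.26, against a median of 1.08 over 4074 genes. Their means were −1.11 ± 0.12, −0.83 ± 0.13 and −0.77 ± 0.11, compared with −1.01 ± 0.10 for Fas. For Pdcd4 the nearest were Taf11, a subunit of the transcription factor TFIID (0.10), Kctd4 (0.12) and Stoml3 (0.14). They were split by channel order like Pdcd4, as this choice entails, with 0.69 and −0.12 for Taf11, 0.61 and −0.19 for Kctd4 and 0.76 and −0.27 for Stoml3. For Mdm2 the nearest were Rab3ip, a Rab exchange factor (0.06), Cfdp1 (0.07) and the kinase Aak1 (0.08). Those nearest to Mcl1 were Cryz, Tcof1 and Ube4b on slide type 1 (0.06 each), and Alkbh5, Grpel1 and Pex6 on slide type 2 (0.10, 0.10 and 0.11). The latter were split by channel order like Mcl1, again by this choice, with 0.30 and −0.50 for Alkbh5, 0.24 and −0.46 for Grpel1 and 0.21 and −0.55 for Pex6. The mean of Pex6 was called negative (−0.17 ± 0.11, limma adjusted p = 0.031).

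No other measured gene of the death receptor list came near Fas. The other 4 members on slide type 1 were Birc3, Daxx, Tnfrsf12a and Ltbr, 0 of them called, with values from −0.12 to 0.03. In all genes of that slide type, 5.65% were called negative and 5.73% positive, with a median of −0.04. Among 5 other members on slide type 2, 1 was called, on the negative side, where 31.9% of all genes were called negative and 18.5% positive, with a median of −0.05. It was Dedd, a protein with a death effector domain, at −0.27 ± 0.10 (SD, n = 3, limma adjusted p = 0.00151), a call that ended without centring (−0.19, limma adjusted p = 0.471). Over all genes of slide type 2, 65 were called negative and 76 positive without centring, against 1299 and 753 with it. On slide type 1 these counts were 5 and 263, against 217 and 220. A negative call, or any call on slide type 2, that is lost without centring thus does not set a gene apart. Fadd, the adaptor that links Fas to caspase 8, had 0.09 ± 0.11 (limma adjusted p = 0.224) and did not pass. Caspase 8 had no value from a probe with 1 symbol, and Fas ligand was not analysed here.

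The Bcl2 family list also holds genes outside that family, among them Tmbim6, Tmbim4 and Bag1. Of its members other than Mcl1, 3 were measured on slide type 1 and 1 was called negative, where 5.65% of all genes were called negative. It was Tmbim6 (Bax inhibitor 1, a protein of the endoplasmic reticulum), at −0.30 ± 0.08 (limma adjusted p = 0.00899). Of 8 other members on slide type 2, 3 were called, all 3 positive: Bnip3, a mitochondrial protein induced by hypoxia, at 0.24 ± 0.06, Bcl2l10 at 0.23 ± 0.11 and the proapoptotic Bik at 0.23 ± 0.16, where 18.5% of all genes were called positive. By channel order, Bnip3 had 0.57 and −0.09 and Bik had −0.05 and 0.50. Bcl2l10 did not pass on slide type 1, with 0.08 ± 0.09 (limma adjusted p = 0.46). Medians of the other members were 0.01 and 0.09 on slide types 1 and 2. Without centring, 0 of these 4 calls held.

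Caspases, apoptosome genes and their inhibitors had 1 negative call among 6 on slide type 1, and 3 negative and 2 positive calls among 9 on slide type 2. Over all genes of slide type 1, 5.65% were called negative and 5.73% positive. The shares on slide type 2 were near the 31.9% and 18.5% of all genes called on these sides. Pea15a, which binds Fadd and caspase 8 through a death effector domain, was called on both slide types, with −0.20 ± 0.03 (limma adjusted p = 0.0436) and −0.46 ± 0.08 (limma adjusted p = 1.39e-05). The nuclear proteins Acin1 and Api5 had −0.21 ± 0.03 and −0.19 ± 0.04. By channel order on slide type 2, Pea15a had −0.34 and −0.58, Acin1 had −0.02 and −0.40 and Api5 had 0.23 and −0.61. The positive calls were Birc6, a large inhibitor of apoptosis protein, at 0.28 ± 0.04, and Casp12 at 0.17 ± 0.14, the latter named after its value was seen. In the same orders, Birc6 had 0.43 and 0.13 and Casp12 had −0.02 and 0.36. Birc6 had −0.04 ± 0.10 on slide type 1 and did not pass there. None of these 6 calls held without centring, where few of all genes were called negative on slide type 1 or called at all on slide type 2.

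Among p53 and its regulators other than Mdm2, slide type 1 had 2 positive calls and 1 negative call among 17 genes, beside 5.73% and 5.65% of all genes. Slide type 2 had 4 negative and 0 positive calls among 13, where 31.9% of all genes were called negative and 18.5% positive. The share of negative calls on slide type 2 was thus near that of all genes. The kinase Atm, which phosphorylates p53 and Mdm2 after DNA breaks, had 0.26 ± 0.09 (limma adjusted p = 0.0188), and Mif, a cytokine, had 0.25 ± 0.14 (limma adjusted p = 0.0371). Both calls held without centring (0.56 and 0.55). Ing1, a chromatin reader that binds p53, was called negative by both, at −0.25 ± 0.02 (limma adjusted p = 0.0157) and −0.31 ± 0.05 (limma adjusted p = 0.000393), and lost both calls without centring. The other negative calls on slide type 2 were Cdk5rap3 (−0.36 ± 0.14), the transcription factor Yy1 (−0.27 ± 0.04) and Rpl11, a ribosomal protein that can bind Mdm2 (−0.16 ± 0.12), and these 3 were lost without centring too. Mdm4, the relative and partner of Mdm2, had −0.06 ± 0.05 (limma adjusted p = 0.579), and Trp53 itself had no value from a probe with 1 symbol.

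Of the p53 target genes other than Fas and Mdm2 on slide type 1, 0 of 9 were called, beside 5.65% of all genes called negative and 5.73% positive. Their values ran from −0.09 to 0.19, with a median of −0.02. The highest was Btg2, an antiproliferative gene, at 0.19 ± 0.06 (limma adjusted p = 0.0535), which passed without centring (0.50, limma adjusted p = 0.0334). On slide type 2, 1 of 10 was called positive, the nuclease Aen at 0.23 ± 0.09, and 2 negative, Gpx1 at −0.19 ± 0.09 and Sesn1 at −0.15 ± 0.07, beside 18.5% and 31.9% of all genes. These 3 calls were lost without centring. Aen had −0.06 ± 0.09 on slide type 1 and Gpx1 −0.05 ± 0.17, neither of which passed. Ccng1, cyclin G1, a target that many cell types induce strongly through p53, had −0.02 ± 0.07 and −0.00 ± 0.07 on the 2 slide types. The values of Fas, at −0.78 ± 0.09 and −1.01 ± 0.10 as gene means, lie below the lowest of these other targets, −0.09 and −0.19. Cdkn1a and Bax had no value from a probe with 1 symbol.

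**Figure D5:**
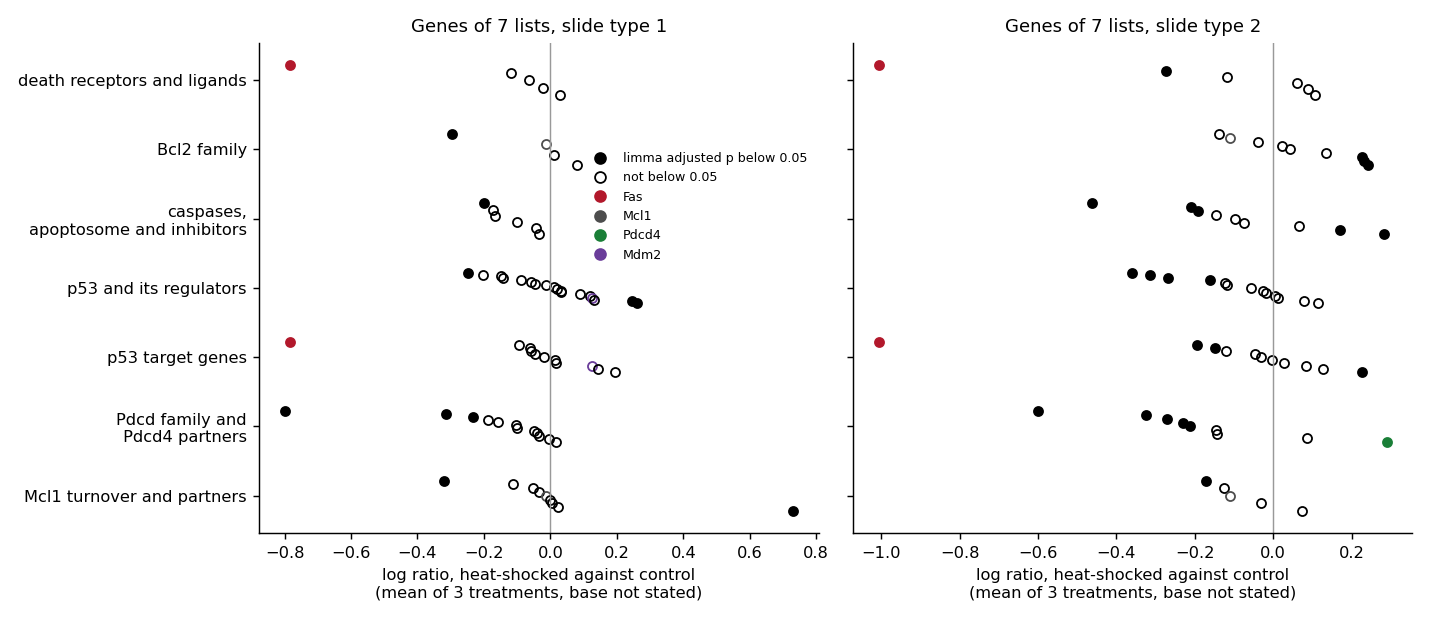
Each circle is the gene mean of the log ratio over 3 treatments (horizontal axis, base not stated) for the measured members of 7 lists, filled where limma's adjusted p over all genes of the slide type was below 0.05; Fas, Mcl1, Pdcd4 and Mdm2 are coloured. Fas stands alone at the left of its lists, at −0.78 and −1.01.

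In the list of the Pdcd family and Pdcd4 partners, 3 of 12 genes were called negative on slide type 1, and 5 of 8 genes other than Pdcd4 on slide type 2, with 0 positive calls on either, beside the 5.65% and 31.9% of all genes called negative. The eIF4A helicases that Pdcd4 binds had −0.31 ± 0.14 (Eif4a1, slide type 1, limma adjusted p = 0.0133) and −0.60 ± 0.03 (Eif4a2, slide type 2, limma adjusted p = 6.5e-07). The scaffold Eif4g2 had −0.23 ± 0.11 and −0.33 ± 0.10, called negative on each slide type, and the helicase cofactor Eif4b was called on slide type 2 (−0.27 ± 0.10) but not on slide type 1 (−0.19 ± 0.15, limma adjusted p = 0.116). By channel order on slide type 2, Eif4a2 had −0.51 and −0.69, Eif4g2 had −0.05 and −0.60 and Eif4b had −0.02 and −0.52. As a gene mean, Pdcd4 had 0.29 ± 0.05, made of 0.70 and −0.12 in the 2 channel orders, and did not pass without centring (0.37, limma adjusted p = 0.14). Srsf3, which regulates the splicing of Pdcd4 in human cells, had −0.80 ± 0.19. The remaining calls on slide type 2 were the ubiquitin ligase scaffold Cul1 (−0.21 ± 0.04) and Pdcd10 (−0.23 ± 0.25), named after its value was seen, which shares the family name with Pdcd4 but is no relative of it. In the 2 channel orders, Cul1 had −0.04 and −0.38 and Pdcd10 had −0.31 and −0.15. Medians of the lists without Pdcd4 were −0.10 and −0.22. Without centring, 1 call was left on each slide type, Srsf3 (−0.50) and Eif4a2 (−0.52).

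Genes that bind the Mcl1 protein, set its turnover or belong to the same pathway gave 1 positive and 1 negative call among 8 on slide type 1 and 1 negative call among 4 on slide type 2, apart from Mcl1, beside 5.73% positive and 5.65% negative calls among all genes on slide type 1 and 31.9% negative calls on slide type 2. Bag3, an Hsp70 co-chaperone that stabilises Mcl1 in human cells, had 0.73 ± 0.19 (limma adjusted p = 0.000186), and the mitotic kinase Cdk1 had −0.32 ± 0.12 (limma adjusted p = 0.0089). Gsk3b, a kinase that marks Mcl1 for degradation, had −0.17 ± 0.08 on slide type 2 (limma adjusted p = 0.0239) and −0.05 ± 0.21 on slide type 1, where it did not pass. Its value on slide type 2 was made of 0.19 and −0.53 in the 2 channel orders. Without centring, Bag3 kept its call (1.03), and Cdk1 (−0.02) and Gsk3b (−0.09) did not. The ligase Huwe1 (−0.11 ± 0.11) and the deubiquitinase Usp9x (−0.13 ± 0.05 on slide type 2), which act on Mcl1 in opposite ways, were not called.

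Markers of tissues within the embryo gave 1 call among 12 measured genes on slide type 1, the neuronal tubulin Tubb3 (−0.21 ± 0.04), and 2 among 8 on slide type 2, the collagens Col1a1 (−0.60 ± 0.29) and Col1a2 (−0.35 ± 0.14), all negative and named after their values were seen. These shares stand beside the 5.65% and 31.9% of all genes called negative. By channel order, Tubb3 had −0.003 and −0.42, Col1a1 had −0.24 and −0.96 and Col1a2 had 0.03 and −0.73. The other measured mesenchyme and neural crest markers, Pdgfra on slide type 1 (0.11 ± 0.14) and Vim on slide type 2 (0.11 ± 0.03), were not called, and without centring Col1a1 alone kept its call (−0.52, limma adjusted p = 0.0129). Erythroid genes had values from −0.14 to 0.09 on slide type 2 and yolk sac endoderm genes from −0.12 to 0.04 on slide type 1, with 0 calls among 5 each. The endothelial markers, 2 on slide type 1, had −0.06 and 0.05 and were not called. Heart muscle markers were not measured on probes with 1 symbol. The part of these markers in the values of Fas was not tested.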

How the data were processed

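The authors deposited 1 value table per slide type, each with 7680 probes, 12 arrays and 0 missing values. The deposited values are treated as a score: log ratios of the 2 channels, with both signs. No source at hand states the log base, numerator, background correction or normalization, and deposited array medians ran from −0.67 to 0.65 on slide type 1 and from −1.51 to 0.24 on slide type 2. Each array was turned by the channel of the heat-shocked RNA, as the labels' source names give it, and centred on the median of its probes. The 4 arrays of a treatment were averaged with equal weight for both channel orders, and the 3 treatments entered limma 3.58.1 in R 4.3.3 (lmFit, eBayes, intercept), with Benjamini-Hochberg adjustment over all probes, or all genes, of that slide type. Probes with 1 symbol were averaged per gene. On simulated data with the probes' spreads and 200 of 7680 probes changed, 75 of 100 changes of 0.5 units and 96 of 100 of 1 unit were recovered on slide type 1 (78 and 98 on slide type 2), with 8 and 5 false calls among 7480. The log ratio was recomputed under 14 other settings of centring, scaling, arrays, replicates and prior. Named genes are those of the 4 members' lists with the smallest p (up to 4 per list and slide type), the 3 nearest genes of each member, and genes fixed by name. Members, the 7 pathway and 6 marker lists and these rules were chosen with earlier results of these data known. Promoter sequences are from RefSeq, and figures were drawn with matplotlib 3.10.9.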

Additional observations from a re-analysis of the deposited data

Results flagged for a closer look

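Among 18 groups of 6 arrays (each of the 9 probes in each channel order), 1 held an array far from the others; chance alone would mark about 1 group in 20. It was Mcl1 probe 1707 on slide type 1 with heat-shocked RNA in channel 2, where the array of treatment 2 without a suffix had −0.24 and the other 5 lay between −0.02 and 0.05.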

How the results depend on the processing

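Of 126 comparisons of a probe's log ratio with another setting, 111 kept the sign and the side of the threshold; Fas kept both with all 3 probes, except probe 3402 without centring (−0.42). Leaving out 1 treatment gave −0.93 to −0.79 for probe 598, −0.74 to −0.72 for probe 3402 and −1.05 to −0.96 for probe 1408, 0.11 to 0.16 and 0.07 to 0.17 for Mdm2 probes 15 and 6074, 0.15 to 0.22 and 0.38 to 0.41 for Pdcd4 probes 379 and 6866, and −0.03 to −0.00 and −0.14 to −0.08 for Mcl1 probes 1707 and 3430. Mdm2 probe 15 passed without centring (0.43), in the fit of 12 arrays with the treatment as a replicate block (0.13, limma adjusted p = 0.0487) and with heat-shocked RNA in channel 1 alone (0.25); that block changed no other call of the 9 probes. Pdcd4 probe 379 did not pass without centring (0.27), without treatment 3 (0.15), in channel 1 alone (0.67), in channel 2 alone (−0.31) or on suffix arrays alone (0.15). Probe 6866 did not pass in channel 1 alone (0.73) or channel 2 alone (0.0601). Mcl1, never called, changed sign without centring (0.29), with centring on probes with 1 symbol (0.0295) and on suffix arrays (0.0123) for probe 1707, and in channel 1 alone (0.30) for probe 3430. The cause was not tested.

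Channel-order differences turned negative without centring for Pdcd4 probes 379 (−0.32) and 6866 (−0.62), Fas probe 1408 (−1.17) and Mcl1 probe 3430 (−0.48), on suffix arrays for Mcl1 probe 1707 (−0.0275), Mdm2 probe 6074 (−0.0154) and Fas probe 1408 (−0.0400), and without treatment 2 for Mcl1 probe 1707 and Fas probe 1408. Leaving out 1 treatment gave −0.0446 to 0.0646 for that Mcl1 probe and −0.496 to 0.587 for that Fas probe. They passed without centring for both Fas probes of slide type 1 (0.52 and 0.53) and both of Mdm2 (0.49 and 0.38), without treatment 3 for Fas probes 598 and 3402 (0.51 and 0.40), and without treatment 1 for Pdcd4 probes 379 and 6866 (1.55 and 1.17).

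Counts over all probes moved more. On slide type 1, 391 negative calls became 14 without centring, 221 with centring on probes with 1 symbol, 678 with the replicate block, 1140 in channel 1 alone and 196 on suffix arrays; 844 positive calls became 472 in channel 2 alone. On slide type 2, 1877 negative calls became 135 without centring, 1205 with centring on probes with 1 symbol, 514 with scale normalization, 13 in channel 1 alone and 236 in channel 2 alone, and 2219 positive calls became 422, 630 with scale normalization, 213 and 464. Leaving out 1 treatment gave 234 to 430 negative and 647 to 791 positive calls on slide type 1, and 1321 to 1882 and 994 to 3038 on slide type 2. Fits of genes called 217 negative and 220 positive of 3838, and 753 positive of 4075. List medians moved beyond the spread between treatments in 13 of 14 cases without centring. Every gene of a slide type moved by the same amount in that setting, so these moves do not set the lists apart. The number of treatments limits the precision, and signal over background could not be judged.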
